A study of Homo sapiens with 5 samples.

Results

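The cells described here are the GNRH1-high neurons of day 24 (D24) in cultures made from WA09, a human embryonic stem cell line. They were chosen by their own GNRH1 level: a barcode was kept if it held at least 1500 UMIs (unique molecular identifiers, each counting 1 captured RNA molecule), at least 1000 genes and under 20% mitochondrial UMIs, and was taken as GNRH1-high if GNRH1 came to at least 3000 ppm, parts per 1000000 of the barcode's own UMIs. This gave 345 of 9110 kept cells at D24, or 3.79% (95% exact Clopper-Pearson interval 3.40 to 4.20%), among 44007 barcodes of the whole series.

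Wild-type WA09 cells were sampled at D22, D24 and D26 of one GnRH neuron protocol. All had received dual SMAD inhibition (dorsomorphin and SB431542), then FGF8, then the Notch inhibitor DAPT, and the labels of these 3 libraries list no further treatment. Cells were frozen and thawed once on the way, during the FGF8 step. Each day is 1 library on 10x Genomics 3′ v3 droplets, with no replicate and from 1 cell line, so no difference was tested, and day, culture and library cannot be told apart. The D24 library held 71397909 UMIs on 9905 barcodes, and D22 and D26 held 131583840 and 100865176. GNRH1-high cells had a median of 8247 UMIs on 2441 genes with 3.78% mitochondrial UMIs, close to the 7150 UMIs, 2411 genes and 3.97% of the other 8765 kept cells of D24.

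GnRH neurons release gonadotropin-releasing hormone, the peptide encoded by GNRH1, which drives the pituitary secretion of gonadotropins and so puberty and fertility. In the embryo they arise outside the brain, near the olfactory placode, and migrate along nasal axons into the forebrain, and many of them pass through a GABAergic phase on the way. DLX homeobox factors are best known for specifying GABAergic neurons of the ventral forebrain, where they act upstream of the glutamate decarboxylase genes.

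The GNRH1 level of the chosen cells was high and broad. It ran from 3148 ppm to 134980 ppm, with quartiles of 11443 and 35794 and a median of 22249. In UMIs, a cell held between 14 and 1189 GNRH1 UMIs, with a median of 169. These cells carried 77277 of the 79465 GNRH1 UMIs of all kept D24 cells, or 97.2%. Among the other D24 cells, 89.0% held 0 GNRH1 UMIs. These values follow from the rule and are given as a description. Near the threshold, 18 cells lay between 2000 and 3000 ppm, with a median of 17.5 GNRH1 UMIs, and 16 lay between 3000 and 4000, with a median of 29. Of the 18 just outside, 7 had at least 3 DLX UMIs, against 11 of the 16 just inside.

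**Figure D1:**
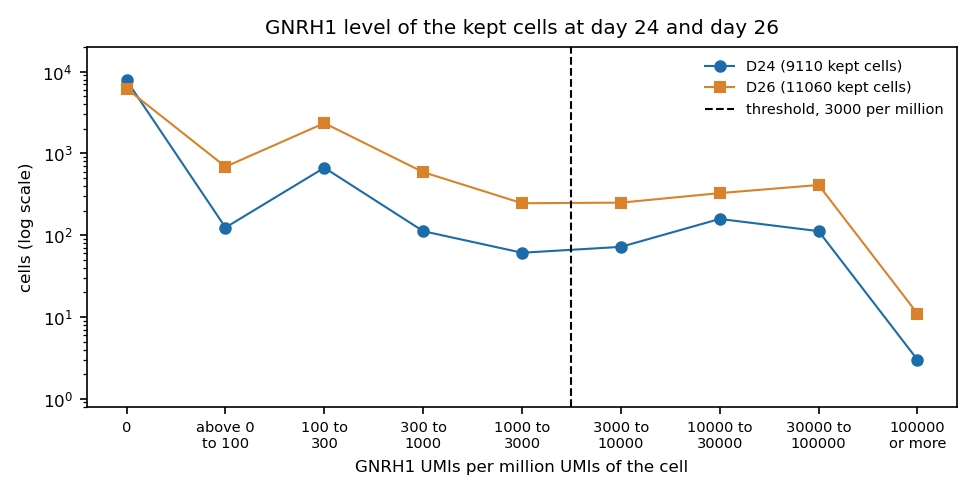
Number of kept cells (log scale) in each band of GNRH1 UMIs in ppm of the UMIs of the cell, for the 9110 kept cells of D24 and the 11060 of D26; the dashed line is the threshold. At D24, 7800 cells held no GNRH1 UMI and only 61 lay between 1000 and 3000 ppm, fewer than the 158 between 10000 and 30000.

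The plot of GNRH1 levels shows that few D24 cells lay just under the threshold. At D26, the same rule took 999 of 11060 kept cells, or 9.03% (8.50 to 9.58%), and at D22 it took 6 of 9539, or 0.0629% (0.0231 to 0.137%). The 6 cells of D22 held between 29 and 169 GNRH1 UMIs each. All 6 held DLX5 and DLX6-AS1 UMIs (41 and 130 in all) and SIX3 UMIs (18), 3 held FGF19 UMIs (13), 1 held FGF3 UMIs (2), and none held a TBR1 or PPP1R17 UMI. So few cells allow no comparison of levels between D22 and D24.

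A GNRH1 UMI in other cells can come from free RNA. After every cell was thinned to 1500 UMIs, 3.53% of the other D24 cells held a GNRH1 UMI (11.0% before thinning), and 2.83% did among 5343 cells with at least 3 UMIs of TBR1 and PPP1R17 and fewer than 3 DLX UMIs, called TBR1/PPP1R17 cells below. The part of free RNA in the values of other genes was not tested. Barcodes shared between libraries were few: 27 were common to D22 and D24, of which 1 was a GNRH1-high cell at D24, and 36 to D24 and D26, of which 0 were.

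Grouping the D24 cells on 2000 variable genes, GNRH1 left out, put most GNRH1-high cells in 1 place. Of the 345, 331 (95.9%, 93.3 to 97.8%) fell in 1 of 10 clusters, which held 559 cells and could be called GnRH-GABA-like from the markers listed for that class. The remaining 14 lay in 6 other clusters, and had a median GNRH1 level of 5859 ppm. Together those 14 cells held 1 DLX5 UMI, 0 FGF19 UMIs (which allows up to 34.1 CPM by the exact interval) and 21 TBR1 UMIs, or 194 CPM (120 to 297). CPM here is counts per 1000000 summed UMIs of a group with GNRH1 left out of the total, and intervals of CPM are exact Poisson intervals. In the 331 cells of the main cluster DLX5 stood at 228 CPM (211 to 246), FGF19 at 152 and CDH6 at 111, so the markers named for these neurons were found in that cluster and hardly in the 14 cells outside it. The other 228 cells of the cluster had a median GNRH1 level of 0, with DLX5 at 277 CPM, FGF19 at 38.3 and CDH6 at 56.1. The cluster was formed on these genes too, so these levels describe it.

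The genes that most set the GNRH1-high cells apart from the other 8765 D24 cells were those of the DLX and GABAergic programme, a pair of FGF ligands and a cadherin. Of 7724 genes measured at 10 CPM or more in either group, 196 were at least 2-fold higher (2.54%) and 367 at least 2-fold lower (4.75%). Since the cells were chosen in this same library, these ratios describe them and are not a test. Ratios are given as log2 with an interval from the exact binomial split of UMIs, which like all intervals here covers counting error only. The median gene had a log2 ratio of -0.09. A gene that reached 10 CPM only in the group where it is high had to differ, so the counts of lists given below describe these cells and support nothing further.

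All 5 measured DLX genes were higher. DLX6-AS1, a long non-coding RNA of the DLX5 and DLX6 locus, reached 353 CPM (332 to 374) in GNRH1-high cells and 11.8 CPM (11.0 to 12.6) in the others, a log2 ratio of 4.90 (4.77 to 5.04). DLX5 stood at 220 CPM (204 to 238) against 8.65, a log2 ratio of 4.67 (4.51 to 4.83). DLX1 at 138 against 4.26 CPM, DLX2 at 92.6 against 4.03 and DLX6 at 67.4 against 2.72 had log2 ratios of 5.01, 4.52 and 4.63. The gene models are DLX5 at chr7:97020396-97024950 and DLX6-AS1 at chr7:96955141-97014088, both on the minus strand of GRCh38. DLX6 lies within the span of DLX6-AS1 on the other strand, and how the counting treated overlapping genes is not given in the sources used here, so these 2 may share UMIs.

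Per cell, DLX5 UMIs were present in 266 of the 345 cells (77.1%) and DLX6-AS1 UMIs in 241 (69.9%). Thinned to 1500 UMIs, the share with a DLX5 UMI was 30.4% (25.6 to 35.6%) in GNRH1-high cells, 0.901% in the other cells and 0.0187% in the TBR1/PPP1R17 cells, which are required by definition to have few DLX UMIs. In total 275 cells (79.7%, 75.1 to 83.8%) held at least 3 UMIs of the 5 DLX genes together, 48 held 1 or 2 and 22 (6.38%) held 0. Among the other D24 cells the share with at least 3 was 2.11%.

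The GABAergic genes followed the DLX genes. GAD2, which encodes the glutamate decarboxylase that makes GABA at synapses, stood at 242 CPM (225 to 261) against 10.6, a log2 ratio of 4.51 (4.36 to 4.67). SLC32A1, the vesicular GABA transporter, stood at 41.6 against 1.58 CPM (4.72, 4.33 to 5.11). Of the 3 GABA genes measured, these 2 were higher and none was lower. GAD1, the other decarboxylase, was below the minimum at 5.03 CPM (15 UMIs) against 0.908.

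Ventral forebrain factors were split. Of 13 measured, 7 were higher (among them ISL1, SIX3, SP8 and SP9) and 3 lower (NR2F2, FEZF1 and FEZF2), with a median log2 ratio of 1.35. ISL1, a LIM homeobox factor of ventral and sensory neurons, stood at 120 against 5.28 CPM (log2 interval 4.29 to 4.72). SIX3, a factor of the anterior neural plate that was also listed among regulators of the GNRH1 promoter, was detected in 314 of the 345 cells and stood at 456 against 85.2 CPM (2.42, 2.33 to 2.51). It was the only 1 of 8 measured promoter regulators past 2-fold, and OTX2, which binds that promoter, stood at 23.1 against 20.5 CPM. NKX2-1, the factor of the ventral hypothalamus and medial ganglionic eminence, had 0 UMIs in these cells, which allows up to 1.24 CPM.

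The FGF ligands FGF19 and FGF3 had the largest ratios of the 12 highest ranked genes. FGF19, which signals through FGF receptors to ERK and patterns the early forebrain, stood at 147 CPM (133 to 161) against 1.52 (1.24 to 1.84), with a log2 ratio of 6.60 (6.28 to 6.92). FGF3, a ligand of the same superfamily, stood at 81.5 CPM (71.6 to 92.4) against 0.997 (0.773 to 1.27), a log2 ratio of 6.35 (5.96 to 6.77). FGF19 UMIs were found in 182 of the 345 cells and FGF3 UMIs in 133, so neither was detected in every cell at this depth. The genes are neighbours on chromosome 11 of GRCh38, FGF19 at chr11:69698238-69704022 and FGF3 at chr11:69809968-69819416, both on the minus strand and 105.9 kb apart. Of 7 measured genes of the list of FGF ligands and receptors (the FGF list), FGF3, FGF14 and FGF19 were higher and none was lower. FGF14 is counted there by family, as it is an intracellular factor and not a secreted ligand. The receptor FGFR1, whose loss causes hypogonadotropic hypogonadism, stood at 29.2 against 20.4 CPM (0.51, 0.18 to 0.83). FGF8, the ligand given in the medium at the earlier step, had 0 UMIs in these cells.

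Among 7 measured FGF-ERK feedback genes, DUSP6, an ERK phosphatase, was higher at 30.2 against 6.89 CPM (2.13, 1.79 to 2.46). SPRY2 and ETV1 were lower, at 14.1 against 28.9 CPM (-1.03) and 14.4 against 100.2 CPM (-2.80), as was FLRT3 at 23.5 against 65.9 CPM (-1.49). These feedback genes therefore did not share 1 direction.

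DLX proteins are homeodomain factors, which in other settings bind TAATTA and its close variants. This hexamer, the variant TAATTG and, as its reverse complement, the letters CAATTA were searched in the 250 bases before the start of each gene in the RefSeq promoter table (GRCh38.p14), which covers both strands. Of the 24 genes named for this comparison 17 had an entry, and DLX5, FGF19 and CDH6 were among those that did not. Among those with an entry, 3 of 8 higher genes (DLX6-AS1, FGF3 and MEF2C) and 3 of 9 lower genes (EMX2, MGAT4C and TBR1) held at least 1 of the hexamers, so their presence did not separate the directions. The windows of DLX6-AS1 and FGF3 are shown as those of 1 gene of the DLX locus and 1 of the FGF ligands, with the hexamers in capitals.

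DLX6-AS1, chr7:97014066-97014315, minus strand: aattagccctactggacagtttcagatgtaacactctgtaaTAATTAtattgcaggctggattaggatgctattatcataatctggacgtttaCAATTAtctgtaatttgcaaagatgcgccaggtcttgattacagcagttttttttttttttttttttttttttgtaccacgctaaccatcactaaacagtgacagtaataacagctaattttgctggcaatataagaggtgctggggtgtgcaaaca
FGF3, chr11:69819417-69819666, minus strand: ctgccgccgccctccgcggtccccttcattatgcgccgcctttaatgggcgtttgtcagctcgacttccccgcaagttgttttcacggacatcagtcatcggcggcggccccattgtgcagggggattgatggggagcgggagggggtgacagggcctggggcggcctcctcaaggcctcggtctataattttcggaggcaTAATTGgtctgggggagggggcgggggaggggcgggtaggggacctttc

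The DLX6-AS1 window holds 2 such hexamers, 209 and 157 bases before the start, and the FGF3 window holds 1, at 49 bases. Of 35116 promoters in the same table, 10.4% hold at least 1 of these 3 spellings and 4.35% hold TAATTA. A match is a description of letters and shows no binding.

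CDH6, a classical cadherin of migrating and sorting cells, stood at 108 CPM (96.5 to 120) against 3.16 (2.75 to 3.61), a log2 ratio of 5.10 (4.84 to 5.35), and was detected in 142 of the 345 cells. Of 7 measured cadherins, CDH6 and CDH10 were higher, and CDH7, CDH12 and CDH18 lower. CDH2, the common neural cadherin, was not past 2-fold. Among 36 guidance and migration genes, 6 were higher and 7 lower, with a median of 0.05. SEMA3C, a secreted semaphorin, had the largest ratio of these, at 61.7 against 1.19 CPM (5.70, 5.31 to 6.09). The netrin receptor UNC5D stood at 30.5 against 2.60 CPM (3.55) and the ephrin EFNB2 at 47.3 against 16.1 (1.56). NRP2, a semaphorin receptor, stood at 15.8 against 54.9 CPM (-1.80) and the adhesion molecule CNTN2 at 16.4 against 95.1 (-2.53). CXCR4, a chemokine receptor of GnRH neuron migration, had 4 UMIs in the 345 cells and no ratio was drawn from it.

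MEF2C, a MADS-box factor of neuronal maturation, stood at 157 CPM (143 to 172) against 5.27 (4.90, 4.69 to 5.10), and ECEL1, a membrane peptidase of neurons, at 87.2 against 4.73 (4.20, 3.96 to 4.44). MEF2C overlaps antisense genes in the annotation.

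Genes of the glutamatergic lineage were lower. Of 17 measured genes of that list, 16 were lower and none higher, with a median log2 ratio of -2.61; they are a small share of the 367 lower genes, which also include both measured IRX class genes, CRABP1 and NR2F1. TBR1, a T-box factor of early glutamatergic neurons, stood at 38.2 CPM (31.5 to 45.9) against 269, a log2 ratio of -2.82 (-3.09 to -2.55). PPP1R17 stood at 43.3 against 311 CPM (-2.85), and the vesicular glutamate transporter SLC17A6 at 13.1 against 70.1 (-2.42). The LIM homeobox genes LHX1, LHX2, LHX5 and LHX9 had log2 ratios between -2.83 and -2.43, and the dorsal homeobox gene EMX2 stood at 99.6 against 616 CPM (-2.63). The other lowest genes were RSPO3, a secreted Wnt agonist (69.4 against 478 CPM), SCG2, a granin of secretory granules (25.8 against 194), the retinoid-related receptor RORB (15.1 against 124), LHX5-AS1 (120 against 760), FSTL5 (30.5 against 206) and MGAT4C (10.4 against 95.7). CRABP1, a retinoic acid binding protein, stood at 14.1 against 142 CPM, and 1 cell held 57% of its 42 UMIs in the GNRH1-high group.

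**Figure D2:**
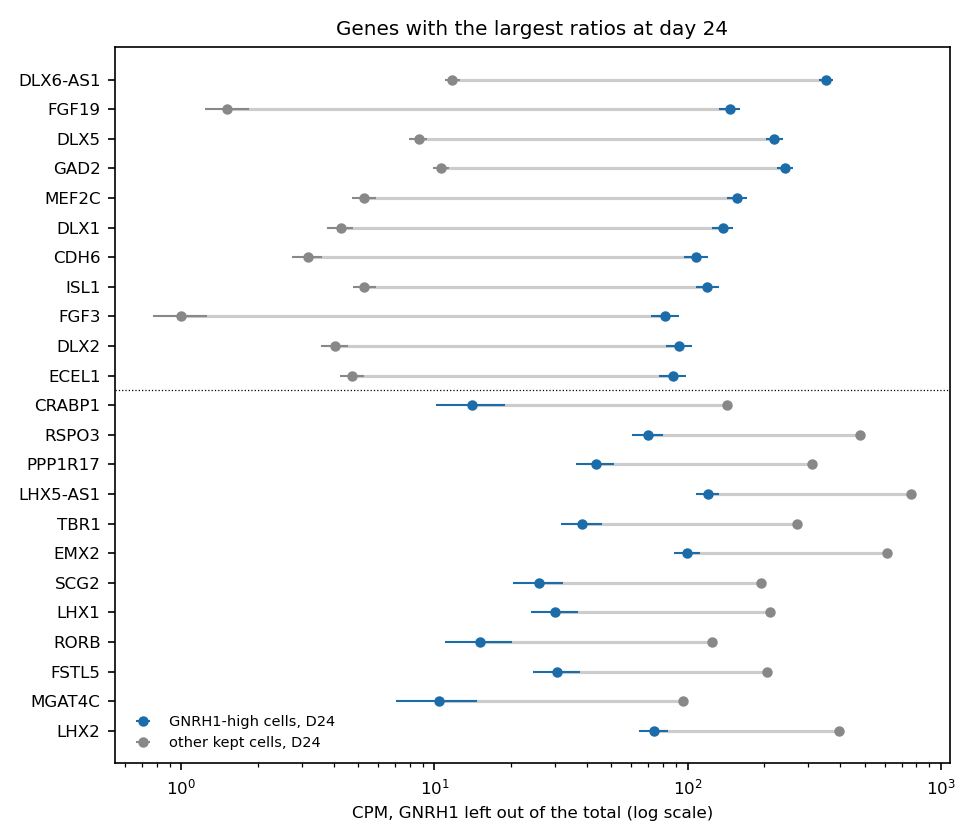
CPM (log scale, GNRH1 left out of the total) of 11 of the 12 highest and the 12 lowest ranked genes in the 345 GNRH1-high cells (blue) and the 8765 other kept cells (grey) of D24, with exact 95% Poisson intervals for counting error. The upper 11 lie between 81.5 and 353 CPM in the GNRH1-high cells and at or under 11.8 CPM in the others; the lower 12 lie at or under 120 CPM in the GNRH1-high cells.

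The plot of the named genes shows no overlap of intervals for any gene plotted, which choosing genes by the size of their ratio favours. The UMIs of TBR1 and PPP1R17 in the GNRH1-high group sat in few cells, while some other genes of the list were found in more, such as POU2F2 in 194 of the 345 and EMX2 in 92. Of the 345, 267 held 0 TBR1 and PPP1R17 UMIs, and 33 (9.57%, 6.68 to 13.2%) held at least 3. Those 33 had a median of 14994 UMIs, against 8247 over all 345, and 20 of them had a doublet score above 0.25. With cells above that score removed, the log2 ratio of TBR1 went from -2.82 to -3.75 and that of LHX1 from -2.83 to -4.19. With the 33 cells left out it was -4.35 for TBR1 and -5.02 for PPP1R17, both of which the exclusion itself lowers, and -4.53 for LHX1 and -5.16 for CRABP1. The part of doublets in the other ratios was not tested further, and DLX5 went from 4.67 to 4.86 with those scores removed.

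Neuropeptide genes were divided. Of 8 measured precursors other than GNRH1, TAC1 (substance P; 69.4 against 7.68 CPM, log2 ratio 3.18), NMU (neuromedin U; 131 against 43.6, 1.58) and HCRT (orexin; 136 against 46.5, 1.54) were higher. The other 5 were lower: TRH (35.2 against 202 CPM, -2.52), ADCYAP1 (10.4 against 56.3, -2.44), NTS (5.70 against 46.0, -3.01), SST (1 UMI) and CRH, of whose 12 UMIs 1 cell held 67%. NTS, SST and CRH reached the minimum of 10 CPM only in the other cells, and with a minimum of 50 CPM, which 5 of the genes reached, the median log2 ratio of the list went from -2.01 to 1.54. None of the 19 measured genes of peptide processing and secretory granules was 2-fold higher and 6 were lower, among them the prohormone convertases PCSK1 (14.1 against 48.1 CPM, -1.77) and PCSK2 (32.5 against 118, -1.86) and the amidating enzyme PAM (35.9 against 104.9, -1.55), which act on peptide precursors. Carboxypeptidase CPE stood closer, at 265 against 343 CPM (-0.37, -0.47 to -0.27).

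Among genes of congenital hypogonadotropic hypogonadism, in which GnRH neurons are absent or silent, 1 of 19 measured was higher (DUSP6) and 4 lower (FLRT3, FEZF1, PCSK1 and NRP2). The kisspeptin receptor KISS1R, which gates GnRH release after puberty, had 18 UMIs in the GNRH1-high cells and stood at 6.04 against 10.3 CPM. The estrogen receptor gene ESR1 had 1 UMI.

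Progenitor genes were divided as well. SOX2, a stem and progenitor factor, stood at 111 CPM (99.4 to 124) against 13.4 (3.05, 2.87 to 3.24), PAX6 at 122 against 30.3 (2.00), NES, an intermediate filament of progenitors, at 89.6 against 37.6 (1.25), DLK1 at 153 against 75.6 (1.01) and the Notch ligand DLL1 at 14.8 against 6.65 (1.15). DLL3, NEUROG1 and NHLH1 were lower, which makes 5 higher and 3 lower of 12. Cell cycle genes were not higher: 0 of 8 measured were 2-fold higher and 6 were lower, with TOP2A at 5 UMIs (1.68 against 15.1 CPM) and MKI67 at 1 UMI in the 345 cells. SOX2 lies within the span of SOX2-OT on the same strand.

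Pan-neuronal genes stood close to the rest of the library. Of 31 measured maturation genes, 3 were higher, 2 lower and the median log2 ratio was -0.00279. STMN2, a microtubule regulator of growing axons, stood at 9029 against 9046 CPM, and NEFL, the light neurofilament, at 1059.9 against 525 (1.01, 0.96 to 1.07). The splicing factor RBFOX1 (23.8 against 0.878 CPM, 4.76) and the synaptic adhesion gene NRXN3 (50.0 against 9.30, 2.43) were the other 2 higher ones. Of 18 ion channel and receptor genes 5 were higher and 5 lower, and of 8 calcium binding proteins CALB1 (27.5 against 11.7 CPM) and SCGN (56.3 against 2.90, 4.28) were higher. Genes of low oxygen and glycolysis had 0 of 9 past 2-fold in either direction, and stress genes had 0 of 10 higher and 2 lower.

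Markers of other cell types were at or near 0. In the 345 cells, the summed level was 1.68 CPM for 10 neural crest and mesenchyme genes (8 of them at 0 UMIs), 3.69 for 7 epithelial genes (4 at 0), 0.335 for 8 genes of endothelium and blood (7 at 0) and 14.1 for 9 glial genes (5 at 0), against 3.77, 5.02, 3.17 and 22.1 CPM in the other cells. The 3 measured placode genes held none that was higher, and 10 of the 15 listed had 0 UMIs.

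**Figure D3:**
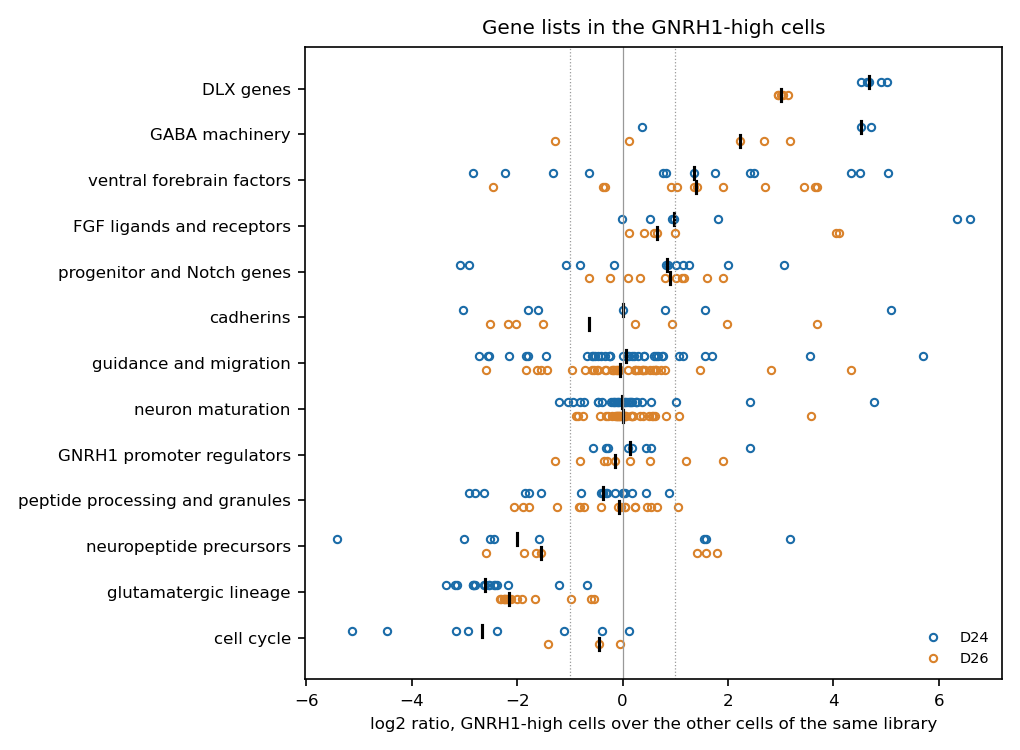
Log2 ratio of each measured gene (circles) of 13 lists in GNRH1-high cells over the other kept cells of the same library, at D24 (blue) and D26 (orange); black bars are medians and dotted lines mark 2-fold. At D24 the DLX genes had a median of 4.67 and the glutamatergic genes one of -2.61, while the guidance list lay around 0 with SEMA3C far to the right.

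The plot of gene lists places the D26 library beside D24. The labels do not say whether the D26 library came from a separate differentiation. In the D26 library, the GNRH1-high cells were taken with the same GNRH1 threshold. There, 181 of 8465 genes were at least 2-fold higher in the 999 GNRH1-high cells than in the other 10061 cells (2.14%) and 232 lower (2.74%). Of the 196 genes higher at D24, 106 (54.1%, and 58.6% of those higher at D26) were in both lists, and of the 367 lower, 152 (41.4%, and 65.5%) were. The shared higher genes include all 5 DLX genes, GAD2, SLC32A1, ISL1, SIX3, FGF19, FGF3, CDH6, SEMA3C, MEF2C, TAC1, NMU and HCRT. Of the 182 higher genes that were also measured at D26, 175 had the same sign there and none was 2-fold lower. Of the 292 lower genes measured at D26, 273 had the same sign and 2 were at least 2-fold higher.

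The size of the ratios differed between the days. DLX5 had a log2 ratio of 4.67 at D24 and 3.00 at D26, DLX6-AS1 4.90 and 2.95, FGF19 6.60 and 4.06, CDH6 5.10 and 3.69. At D26 the cells outside the GNRH1-high group had more DLX5, DLX6-AS1 and FGF19, but not more CDH6. DLX5 stood at 30.8 CPM in them, against 8.65 at D24, and FGF19 at 5.56 against 1.52. In the GNRH1-high cells themselves DLX5 stood at 220 CPM at D24 and 246 at D26, while FGF19 and CDH6 were lower at D26. DLX5, DLX6-AS1, FGF19 and CDH6 together stood at 827 CPM in these cells at D24 and 624 at D26. Whether the difference between the days exceeds that between cultures was not tested, since each day is 1 library.

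Next, the GNRH1-high cells were set against the cells most like them, D24 cells that also held at least 3 DLX UMIs but had GNRH1 below the threshold. There were 275 of the former and 185 of the latter. Of 7503 genes, 104 were at least 2-fold higher (1.39%) and 129 lower (1.72%). Of 4 measured GABA genes, GAD1 was lower, at 13 against 30 UMIs (5.30 against 18.6 CPM, -1.81, -2.87 to -0.82). The DLX genes, GAD2, ISL1 and SIX3 were not past 2-fold: DLX5 stood at 256 against 324 CPM (-0.34, -0.51 to -0.17), DLX6-AS1 at 424 against 475 (-0.16), GAD2 at 251 against 324 (-0.37), ISL1 at 107 against 112 (-0.07) and SIX3 at 457 against 452 (0.02). Both groups were required to hold DLX UMIs, which brings their DLX levels together by construction. This choice can also bring together genes found in the same cells. In the main cluster, whose leading genes include GAD2 and ISL1, lay 274 of the 275 and 179 of the 185. How far the choice matched GAD2, ISL1 and SIX3 was not tested. Of 16 measured peptide processing and granule genes, 4 neuropeptide precursors and 7 FGF-ERK feedback genes, 0 were past 2-fold in either direction. Of 11 progenitor genes 0 were higher and 2 lower (SOX3 and DLL3). For the genes measured here, DLL3 apart, the 2-fold differences of these lists from all other D24 cells were thus not particular to cells above the threshold. Of the 185 cells below it, 50 held GNRH1 at 300 to 3000 ppm, so this group is not without GNRH1. With only those under 300 ppm on that side, 173 genes were at least 2-fold higher and 206 lower.

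Among the highest ranked of the 104 higher genes were FGF19, FGF3, CDH6, MEF2C and SEMA3C, and the lowest ranked were the orphan nuclear receptor genes NR2F1 and NR2F2. Of 7 measured genes of the FGF list, FGF3 and FGF19 were the 2 that passed 2-fold. FGF19 stood at 154 against 40.2 CPM (log2 ratio 1.94, 1.55 to 2.34), FGF3 at 82.8 against 29.1 (1.51, 1.05 to 2.00), CDH6 at 107 against 46.4 (1.20, 0.83 to 1.59), MEF2C at 167 against 76.1 (1.14, 0.84 to 1.44) and SEMA3C at 62.4 against 29.1 (1.10, 0.62 to 1.61). SYBU, which links syntaxin-bearing vesicles to kinesin, stood at 88.1 against 41.4 (1.09). TSTD1 (104 against 52.0 CPM) and RASD1, a Ras-like protein induced by dexamethasone (98.3 against 49.5), just missed 2-fold. Of 8 measured promoter regulators, OTX2 was the 1 past 2-fold here, with 55 against 11 UMIs (log2 ratio of CPM 1.72, 0.77 to 2.80), and its ratio at D26 was 0.14 (-0.24 to 0.52). RBFOX1, SCN2A, CALB1 and CDH10 were also higher at D24, with log2 ratios between 1.06 and 1.29.

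NR2F1 and NR2F2 encode the COUP-TF receptors, which mark caudal and ventral parts of the forebrain. NR2F1 was also listed as a marker of another class of cells in these cultures, the IRX class. NR2F1 stood at 7.75 against 90.3 CPM (-3.54, -4.32 to -2.85) and NR2F2 at 4.90 against 69.9 (-3.84, -4.83 to -2.97). Both overlap antisense genes on the other strand. Of 10 listed IRX class genes 3 reached the minimum, NR2F1 and WLS only in the GNRH1-low cells, and these were lower in the GNRH1-high cells: NR2F1, the retinoic acid binding protein gene CRABP1 (16.7 against 40.8 CPM, -1.29) and WLS, which carries Wnt ligands to the cell surface (9.79 against 26.6, -1.44). The list summed to 45.7 against 178 CPM, and the part of IRX class cells in the difference was not tested. Also lower were the zinc finger gene ZNF503 (15.1 against 86.0 CPM, -2.51), DSEL, an epimerase of dermatan sulfate (26.9 against 80.4, -1.58), PCP4, a calmodulin regulator (55.1 against 134, -1.28), and the Notch ligand DLL3 (52.2 against 106, -1.02). GNG5 and MIR7-3HG had log2 ratios of -0.94 and -0.96.

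**Figure D4:**
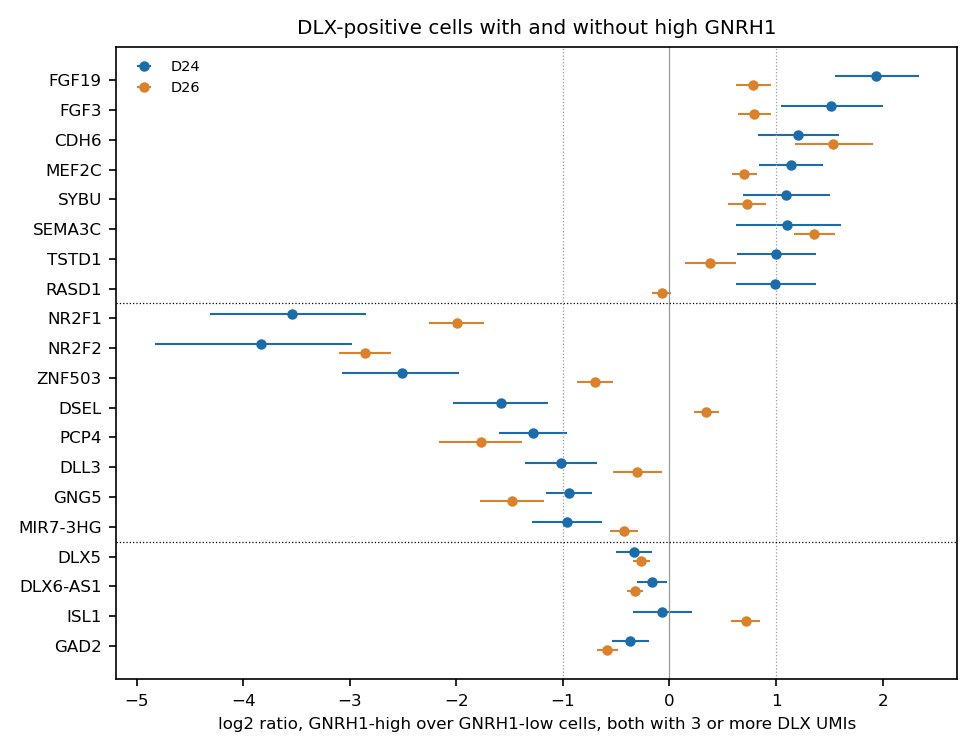
Log2 ratio with its 95% counting interval for GNRH1-high over GNRH1-low cells, both with at least 3 DLX UMIs, at D24 (blue, 275 over 185 cells) and D26 (orange, 847 over 787 cells); dotted vertical lines mark 2-fold. FGF19, FGF3, CDH6, MEF2C and SEMA3C lie to the right of 0 at both days and NR2F1, NR2F2 and PCP4 to the left, while DSEL lies at -1.58 at D24 and 0.35 at D26.

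The plot of DLX-positive cells gives the same contrast at D26, chosen after the D24 values were seen, with 847 GNRH1-high and 787 GNRH1-low cells. There, 21 of 8325 genes were at least 2-fold higher (0.252%) and 28 lower (0.336%). Of the 104 higher at D24, 4 were among them (3.85%, and 19.0% of the D26 list): CDH6, SEMA3C, BMP2 and TPD52L1. Of the 129 lower, 9 were (6.98%, and 32.1%), among them NR2F1, NR2F2, PCP4, ONECUT1, CCND2 and MAF. Only 57 of the 92 higher genes and 64 of the 90 lower genes that were measured at D26 had the same sign there, and 0 were past 2-fold in the other direction. FGF19 stood at 99.3 against 57.6 CPM at D26 (0.79, 0.62 to 0.95), FGF3 at 116 against 66.6 (0.79, 0.64 to 0.95), MEF2C at 179 against 110 (0.70), CDH6 at 30.2 against 10.4 (1.54, 1.18 to 1.91), SEMA3C at 96.7 against 37.8 (1.36, 1.17 to 1.55), NR2F1 at 18.3 against 72.6 (-1.99) and NR2F2 at 18.0 against 130 (-2.85). FGF19 and FGF3 thus kept their direction with ratios below 2-fold. A stricter GNRH1 threshold of 10000 ppm lowered the D24 ratio of CDH6 to 0.46, under 2-fold, and left FGF19 at 1.43 and FGF3 at 1.18. That threshold also moved the D24 cells of 3000 to 10000 ppm to the GNRH1-low side, if they held at least 3 DLX UMIs. Of those 72 cells, 51 did. The part of this move in the lower ratios was not tested. With cells thinned to 1500 UMIs the ratio of CDH6 was 3.24, on 44 UMIs in all.

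The GNRH1-high cells with few DLX UMIs had some genes at like levels and others that differed. In the 70 with under 3 DLX UMIs, SIX3 stood at 452 CPM against 457 in the 275 with more (-0.02), CDH6 at 113 against 107 (0.08, -0.35 to 0.49), FGF3 at 75.4 against 82.8 (-0.14), GAD2 at 202 against 251 (-0.32) and FGF19 at 115 against 154 (-0.42, -0.84 to -0.03). ISL1 was somewhat higher at 179 against 107 CPM (0.74, 0.39 to 1.09). SOX2 (47.1 against 125, -1.41), SCGN (26.4 against 62.8, -1.25) and RASD1 (24.5 against 98.3, -2.01) were lower in the 70, as were SLC32A1 (18.8 against 46.5, -1.30), CDH10 and UNC5D. Of 14 measured glutamatergic genes, 4 were higher in the 70 (EOMES, LHX2, EBF1 and GABRA2) and none lower, with a summed level of 797 against 562 CPM, and TBR1 stood at 54.6 against 34.7 CPM (0.66, -0.01 to 1.28). Of the 275 cells with more DLX UMIs, 274 lay in the main cluster, so the 14 cells outside it were nearly all among the 70. Of 7577 genes, 3.23% were at least 2-fold higher and 4.12% lower in this contrast, and 17 and 57 genes were past 4-fold. The 70 cells were slightly shallower, with a median of 7404 UMIs against 8418, and low depth itself makes fewer than 3 UMIs more likely.

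Against the 5343 TBR1/PPP1R17 cells of D24, the ratios of the DLX genes and of FGF19, CDH6 and GAD2 were larger still. Those cells were chosen to have few DLX UMIs, which lowers their DLX levels by construction. Of 7747 genes, 202 were at least 2-fold higher (2.61%) and 379 lower (4.89%). FGF19, CDH6 and GAD2, which the choice did not name, had log2 ratios of 9.06, 8.03 and 7.56. Leaving out DLX-positive cells, where these genes were higher than in all other D24 cells together, raises these ratios too. The ratios rest on few UMIs: DLX5, DLX6-AS1, FGF19 and CDH6 together stood at 1.45 CPM in the TBR1/PPP1R17 cells. The FGF list had 4 of 7 measured genes higher, the fourth being FGFBP3, a carrier of FGFs.

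Within the GNRH1-high cells, levels were followed over 3 bands of GNRH1: 72 cells from 3000 to 10000 ppm, 158 from 10000 to 30000, and 115 above. The bands had similar depth, with medians of 8965, 8173 and 7817 UMIs. The share of cells with at least 3 DLX UMIs was 70.8%, 79.7% and 85.2%, and the share with at least 3 TBR1 and PPP1R17 UMIs 16.7%, 10.1% and 4.35%. Comparing the top with the bottom band, 334 of 7704 genes were at least 2-fold higher (4.34%) and 447 lower (5.8%), with few UMIs behind many of them.

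SEMA3C ranked highest among the genes with more UMIs in the top band, with 23.0, 68.2 and 83.8 CPM in the 3 bands (top over bottom 1.86, 1.09 to 2.72; 17, 92 and 75 UMIs). FGF3 stood at 51.5, 83.8 and 103 CPM (1.00, 0.44 to 1.58), FGF19 at 102, 147 and 184 (0.86, 0.46 to 1.27), MEF2C at 108, 165 and 185 (0.77, 0.38 to 1.18), TSTD1 at 62.3, 112 and 127 (1.03, 0.52 to 1.56) and the secreted Wnt modulator SFRP1 at 51.5, 74.9 and 98.3 (0.93, 0.37 to 1.52). ING2 and FAM171A2 completed the 6 highest, with ratios of 1.16 and 1.06. SIX3 (454, 435 and 490 CPM) and CDH6 (125, 98.6 and 108) had intervals of the ratio that include 0.

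The genes that were lower in the top band were LHX1 (58.3, 30.4 and 5.59 CPM), TRH (71.8, 32.6 and 8.94), RSPO3 (138, 60.8 and 25.7), LHX9 (61.0, 28.2 and 7.82), FSTL5 (63.7 in the bottom and 10.1 in the top band) and LHX5-AS1 (207, 119 and 50.3). All 6 are genes that were lower in the GNRH1-high cells than in the other D24 cells, and they moved with the share of cells holding TBR1 and PPP1R17 UMIs. The part of mixed or doublet barcodes in this was not tested.

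**Figure D5:**
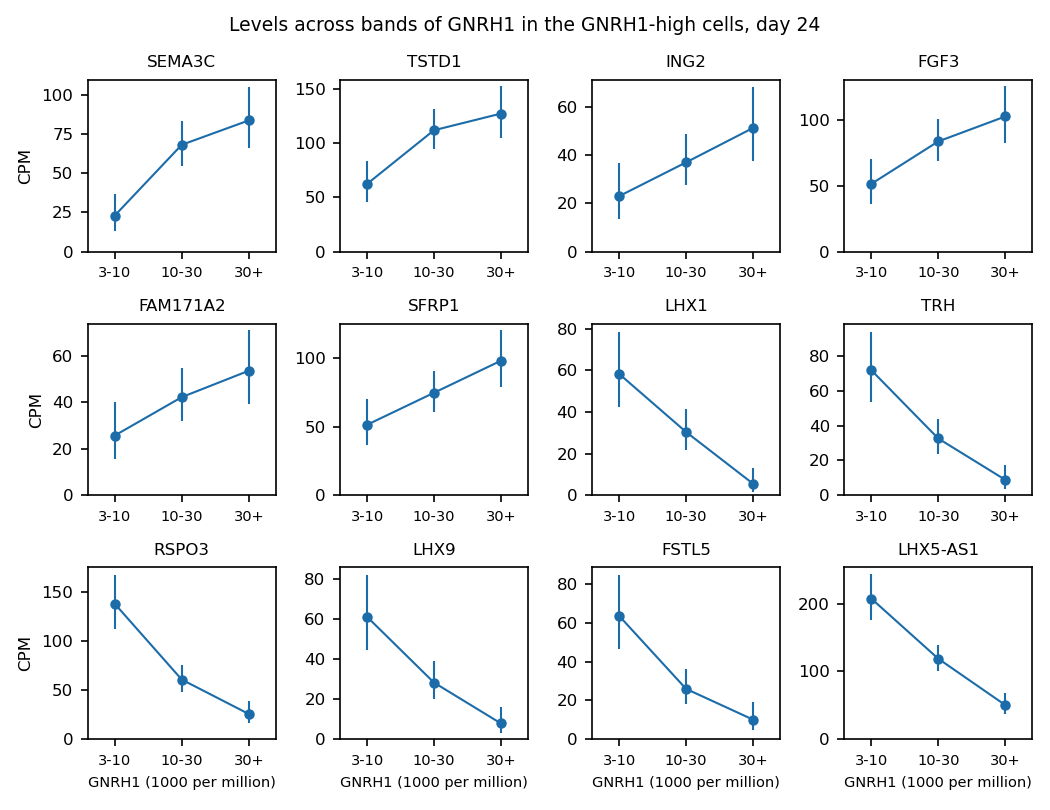
CPM with exact 95% Poisson intervals in 3 bands of GNRH1 (3000 to 10000, 10000 to 30000 and 30000 ppm or more; 72, 158 and 115 cells) for the 6 highest and 6 lowest ranked genes of the top over the bottom band at D24. SEMA3C goes from 23.0 to 83.8 CPM and LHX1 from 58.3 to 5.59.

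The plot of the GNRH1 bands shows that each of the 12 genes moved in 1 direction over the 3 bands. Choosing genes by the ratio of the top over the bottom band favours this. Cells of 1 library share their source, so these bands are a description of this library.

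Last, the 345 GNRH1-high cells of D24 were compared with the 999 of D26. Of 8218 genes, 959 were at least 2-fold higher at D26 (11.7%) and 101 lower (1.23%), and the median gene had a log2 ratio of 0.41. With ratios centred on that median gene, 276 were higher and 287 lower, a near balance that centring itself favours. The other cells of the same days had a median of 0.34, with 7.48% of genes higher and 2.05% lower.

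The genes with the largest ratios were mostly ones that differed between the days in all cells. DSEL (log2 ratio 2.30 in GNRH1-high cells and 2.09 in the other cells), CHL1 (2.51 and 2.10), GABRA2 (2.98 and 3.05), SCGN (1.99 and 2.54), MGAT4C (2.47 and 1.43) and POU3F2 (1.86 and 0.97) were higher at D26 in both. The GNRH1-high cells of D26 also held more cells with at least 3 TBR1 and PPP1R17 UMIs (17.1% against 9.57% at D24) and more with doublet scores above 0.25 (13.0% against 8.99%), and the glutamatergic list summed to 1058 against 604 CPM. Without the cells with at least 3 TBR1 and PPP1R17 UMIs the ratio was 1.49 for GABRA2 and 1.74 for MGAT4C, and 2.24 for DSEL and 2.42 for CHL1. ALCAM, an adhesion molecule of growing axons, had a ratio in GNRH1-high cells further above that in the other cells than was so for the other 6 genes named: it stood at 11.1 CPM at D24 and 111 at D26 in GNRH1-high cells (3.33, 2.83 to 3.87) and had a ratio of 0.69 in the other cells. Relative to the other cells of its own day, ALCAM had a log2 ratio of -0.45 at D24, with an interval that includes 0, and of 2.18 at D26.

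Of the lower genes, RSPO3 (-5.36 in GNRH1-high cells and -5.23 in the others), CLIC1 (-3.06 and -2.67), GNG5 (-3.14 and -3.85), GNG8 (-2.71 and -3.39), MDK, a heparin-binding growth factor (-2.01 and -1.66) and HMGB2 (-1.88 and -1.32) were lower in both. CDH6 went from 108 to 32.9 CPM in GNRH1-high cells (-1.72, -1.94 to -1.49) and had a ratio of -0.31 in the others, where it was near 3 CPM at both days. Among cells with at least 3 DLX UMIs it was lower at D26 both in GNRH1-high cells (107 at D24 and 30.2 CPM at D26) and in GNRH1-low ones (46.4 and 10.4). SOX2 went from 111 to 26.9 CPM (-2.04, -2.28 to -1.81), against -0.59 in the others. FGF19 went from 147 to 92.5 CPM (-0.67) and FGF3 from 81.5 to 108 (0.40). Relative to the median gene these ratios were -1.08 and -0.01, so FGF3 lay on the general shift between the libraries. Of the peptides, TAC1 went from 69.4 to 216 CPM (1.64), NMU from 131 to 58.5 (-1.16) and HCRT from 136 to 67.0 (-1.02). Of 27 ion channel and receptor genes, 12 were at least 2-fold higher at D26 and none lower, with a median of 0.95, and in the other cells 11 of 23 were higher with a median of 1.00.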

How the data were processed

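The authors aligned 3′ reads to GRCh38 with Cell Ranger (3.1 in the submitters' processing notes, 3.1.0 in the file headers) and deposited UMI counts per gene and barcode, not normalized. Each of the 33538 features is an Ensembl gene, of which 33113 matched GENCODE 44 for positions. The members and gene lists were chosen with earlier results of these data known. UMIs were summed per group of cells and scaled to CPM without GNRH1. Genes with more than 3 UMIs and 10 CPM in 1 group were compared; XIST, Y-linked genes and GNRH1 were left out. Named genes had the largest log2 ratios after 10 CPM was added, among genes with 50 CPM in 1 group: 12 in each direction against all other D24 cells, 8 against DLX-positive cells and between days, 6 between bands, besides the listed genes. BMP2, TPD52L1, ONECUT1, CCND2 and MAF were named after their values were seen. Intervals are exact at 95% and take UMIs as independent. They were tested only on simulated independent counts, not on UMIs clustered by cell. Clusters came from scanpy 1.11.5 (2000 variable genes without GNRH1, 30 components, 20 neighbours, Leiden resolution 0.5). Scrublet, with 6% doublets expected, marked 0 D24 and 0 D26 cells at its automatic threshold, so it had not worked; a score of 0.25 marked 620 (6.81%) and 841, among them 31 GNRH1-high cells of D24 (8.99%), which stayed in. The libraries of D0, D5 and D10 were not used here. Some genes met by the rule or lists are not reported here.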

Additional observations from a re-analysis of the deposited data

Results flagged for a closer look

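Some named genes had ratios on opposite sides of 0 at D24 and D26, each beyond its counting interval. The difference between the days was not tested, as each day is 1 library. In GNRH1-high cells over the other cells of the day, MDK went from 0.08 to -0.28 and TSTD1 from 0.21 to -0.56 (log2). In GNRH1-high over GNRH1-low cells with at least 3 DLX UMIs, SOX2 went from 0.60 to -0.73, HMGB2 from 0.55 to -0.81, GNG8 from 0.34 to -0.69, DSEL from -1.58 to 0.35 and SCGN from -0.73 to 0.48. Of these 7 genes, only DSEL was past 2-fold at 1 of the days.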

How the results depend on the processing

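The share of GNRH1-high cells at D24 was 4.46% with a threshold of 1000 ppm and 3.00% with 10000. It stayed within its interval with 3000 UMIs and under 10% mitochondrial UMIs, and with doublet scores above 0.25 removed. A minimum of 5 GNRH1 UMIs could not change it, since each GNRH1-high cell held at least 14. Complexity above 0.82 could hardly change it, since 9107 of the 9110 kept cells passed. Counts of genes depended most on the minimum level and on depth. With genes of at least 50 CPM, 64 were higher and 103 lower against the other D24 cells, 7 and 7 against DLX-positive GNRH1-low cells, 66 and 117 against TBR1/PPP1R17 cells, and 195 and 33 at D26 over D24. With no CPM minimum these counts were 1437 and 5093, 824 and 843, 1329 and 4249, and 3105 and 627. With cells thinned to 1500 UMIs they were 298 and 755, 867 and 706, 311 and 815, and 1608 and 212. Restricting the other cells to GNRH1 under 300 ppm gave 173 and 206 against DLX-positive cells. Centring on the median gene, added after seeing the data, gave 276 and 287 at D26 over D24. The cause of these changes was not tested. The share of GNRH1-high cells in 1 cluster stayed between 95.7% and 96.2%. Of 61 ratios of named genes, 0 changed sign in 831 alternative values, and of 22 list medians 16 of 305 alternative values did, most of them near 0. Most of the named genes were chosen for their large ratios, and the settings of the CPM minimum cannot change the ratio of a gene. The lack of sign changes among them was thus favoured by the choice. The median of the neuropeptide list, -2.01, became 1.54 with genes of at least 50 CPM, where 5 were left. No paired analysis was possible because each day is 1 library. Leaving out GNRH1-high cells with TBR1 and PPP1R17 UMIs, also added after seeing the data, kept all counts within 1.5 times.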
